A study of Homo sapiens with 15 samples.

Results

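The 10 genes described here encode the subunits of 2 chaperonins, the barrel-shaped machines in which newly made proteins fold. TCP1, CCT2, CCT3, CCT4, CCT5, CCT6A, CCT7 and CCT8 are the 8 subunits of the cytosolic complex TRiC, also called CCT, and HSPD1 and HSPE1 are the mitochondrial chaperonin Hsp60 and its lid Hsp10. They were chosen by gene symbol, as 10 of the 19143 rows of the count table, and all 10 passed the filter on low counts in every comparison. RNA was sequenced from MHCC-97H cells, an established line from a human liver cancer (hepatocellular carcinoma), in 15 libraries from 5 groups of 3. The 2D, 3D and animal groups are the same line, with no genetic change named in the labels, in a flat culture model, a three-dimensional culture model and an animal model. They form a first round of sequencing that asked how the setting changes gene expression. The 3D control and 3D heat groups form a second round, untreated and heat-treated cells of the 3D model, made to look for genes behind heat resistance. The temperature, the length of heating, the time of collection, the host animal, the kind of 3D model and whether animals were pooled are not given in the labels. The labels number the replicates as biological without saying what was separate, so p-values measure the spread between these libraries.

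TRiC is built from stacked rings, each with its 8 different subunits in a fixed order, and it closes over unfolded proteins as ATP is used. Actins and tubulins depend on it, as do several cell cycle proteins and signalling proteins with a propeller fold. Hsp60 works in the mitochondrial matrix, where the ring-shaped lid Hsp10 closes it over proteins that have just been imported and passed on by the mitochondrial Hsp70. The genes for Hsp60 and Hsp10 lie head to head on chromosome 2 and share the stretch between them as a promoter. Heat shock factor 1, the main activator of heat shock genes, binds inverted repeats of the unit GAA, and chaperonin genes are among those that respond to it in many cell types.

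Promoter stretches that hold such repeats are shown here so that the values under heat can be read beside them. The sequences are from RefSeq on GRCh38.p14, in a window of 300 bases from 250 before each annotated start, and 9 of the 10 genes had at least 1 window, 12 windows in all. The motifs searched on both strands were GAANNTTC and TTCNNGAA, which are 2 neighbouring units in opposite directions, and GAANNTTCNNGAA or its reverse complement TTCNNGAANNTTC, which are 3 units in a row and contain the shorter motifs. Of the 12 windows 4 held a motif of 2 units, against 13.5% of 35116 windows of the same length over all genes, and 1 held the motif of 3 units, against 0.49%. Capitals mark the matched bases in the 30 bases printed for each gene, read 5′ to 3′ on the gene's own strand.
HSPD1: gcattTTCTGGAAAGTTCTGGAAccgagcg
TCP1: tcgtttgaggcGAAGGTTCaacctcttccc
CCT2: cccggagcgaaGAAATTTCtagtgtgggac
CCT4: cccgacgccggcgccgctTTCTGGAAggtt
The HSPD1 stretch lies at chr2:197500061-197500090 on the minus strand, and its 18 matched bases hold 3 overlapping matches at -245 to -228 from the downstream of its 2 annotated starts. The same bases lie 294 to 311 bases before the start of HSPE1 at position 197500379. They also lie 189 to 206 bases after the upstream HSPD1 start at position 197500274, and so outside the 105 bases between that start and the start of HSPE1. The window of the upstream start held no match. The TCP1 stretch lies at chr6:159789815-159789844 on the minus strand, with its match at -231 to -224 from its start. The CCT2 stretch lies at chr12:69585789-69585818 on the plus strand. Its match is at -89 to -82 from the downstream of 2 annotated CCT2 starts. The match lies after the upstream CCT2 start, whose window held none. The CCT4 stretch, at chr2:61888607-61888636 on the minus strand, has its match 38 to 45 bases after the downstream of 2 annotated CCT4 starts. The window of the upstream CCT4 start held no match. The windows of CCT3, CCT5, CCT7, CCT8 and HSPE1 held none of these letters. A match is a description of the letters, and binding was not measured.

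Total counts were 12605539 to 18634295 per library, and a chaperonin gene had between 992 reads, for CCT8 in 3D replicate 2, and 18157, for HSPD1 in heat replicate 3. Levels are given in CPM, the read count of a gene scaled to a common library depth, here with edgeR's TMM factors over all 15 libraries. In 3D replicates 1 and 2 and in heat replicate 1, the departure of genes from the 2D mean followed transcript GC content, with rank correlations of 0.593 to 0.797 over 13105 genes against -0.184 to 0.226 in the other 12. For the members, counts of calls that use these libraries are given with and without them, or after an offset for GC content and transcript length. Subunit shares and sums were not adjusted in this way. Among markers of the labelled cell type, KRT8 (2967 to 3057 CPM in 2D) and HNF4A (81.6 to 88.2 CPM) were present, while ALB (2.12 to 2.58), AFP (1.91 to 2.20) and GPC3 (0.0531 to 0.160) were low or near 0 in 2D. In the animal libraries ALB measured 89.9 to 282 CPM and AFP 4.98 to 16.2, while APOB was lower, at 3.53 to 8.89 against 22.3 to 25.3 in 2D. Of 10 such markers tested, 3 were called higher and 1 lower in animal than in 2D in edgeR, where 7.78% and 4.25% of all genes were. In the animal libraries the 10 fibroblast markers summed to 163 to 457 CPM against 64.9 to 69.6 in 2D, with THY1 at 0 reads. The 7 endothelial markers summed to 6.13 to 16.8 CPM against 1.43 to 1.72, with EMCN at 0, and the 9 macrophage markers to 163 to 219 against 103 to 110.1, with TYROBP at 0. The macrophage sum was 387 to 500.6 CPM in 3D and 229.8 to 247 in 3D control, above the animal libraries in each library of both groups. CD68 made up most of these sums, at 373 to 478 CPM in 3D and 219 to 238 in 3D control. It measured 97.6 to 103 CPM in 2D and 111 to 177 in animal. CD74, CD163, LYZ and CSF1R were higher in every animal library than in every 3D and 3D control library. CD74 measured 18.4 to 23.8 CPM against 1.41 to 9.49. CD14, PTPRC and ITGAM overlapped the 3D libraries. Whether reads from the host animal were removed from the animal libraries is not given in the sources used here. The part of these cells in the animal results was not tested, and in bulk RNA fewer cells of a type and less RNA per cell cannot be told apart.

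Each of the 10 genes was transcribed in every library, and the group means ran from 84.4 CPM for CCT8 in 3D to 1026 CPM for CCT3 in 3D heat. In the first round the 2D libraries had the highest mean for 8 genes, the exceptions being CCT2, at 319 ± 6.28 CPM in animal against 317 ± 10.1 in 2D (SD, n = 3), and CCT7, at 471 ± 270.5 CPM in 3D against 372 ± 15.2 in 2D. In neither of these pairs did the groups lie apart. Over the 5 groups HSPD1 ran from 3D heat through 2D and animal, whose libraries overlapped, down to 3D control and then 3D, each apart from the group above it. CCT8 ran from 2D to animal to 3D control, each apart, with 3D heat overlapping 3D control and 3D lowest and apart. For HSPE1 every pair of neighbours in the order overlapped. The untreated 3D controls of the second round lay below the 2D libraries without overlap for 10 of 10 genes, where 32.6% of all 13227 genes did so. They lay above the 3D libraries of the first round for CCT2, CCT6A, CCT8 and HSPD1, 4 of 10 genes where 22.4% of all genes did so, and below them for none, where 20.2% did. Rounds of sequencing and groups cannot be told apart in these 2 comparisons, so they carry no test.

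**Figure D1:**
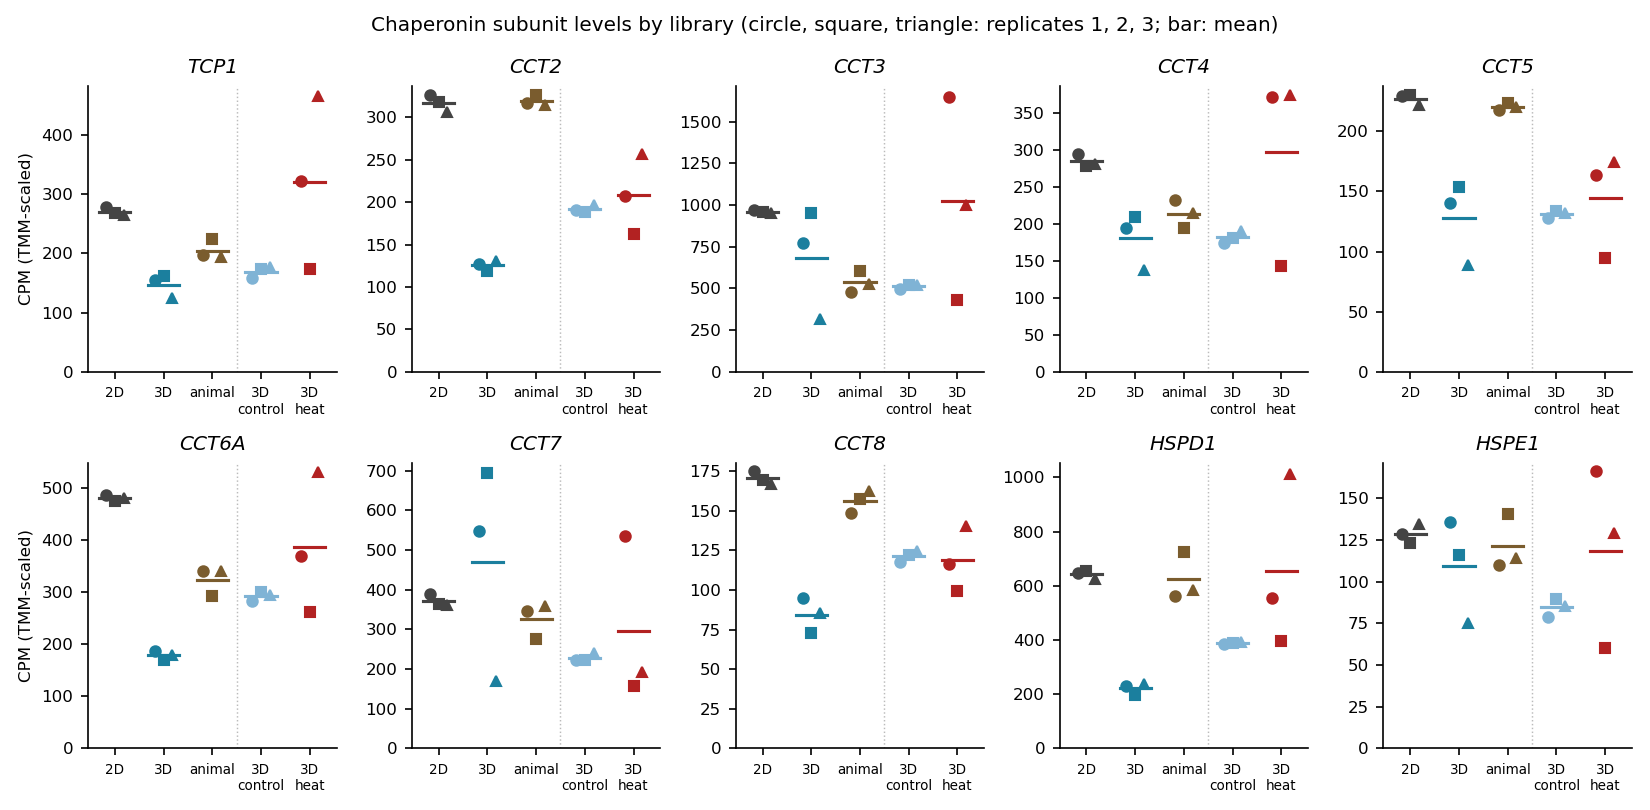
Level of each chaperonin gene in CPM (vertical axis, from 0) in the 15 libraries by group, with replicates 1, 2 and 3 as circle, square and triangle and the group mean as a bar; a dotted line separates the rounds of sequencing. CCT2, CCT6A, CCT8 and HSPD1 are lowest in the 3D libraries of the first round, while CCT3 and CCT7 spread widely there, CCT7 from 169.8 to 694 CPM.

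In 3D culture, 7 of the 10 chaperonin genes were lower than in 2D and none was higher, counting genes at a Benjamini-Hochberg adjusted p below 0.05 over all genes in edgeR. Of all 12925 genes tested, 12.9% were called lower and 20.0% higher, or 18.9% and 13.7% after the offset for GC content and length. The members' median log2 fold change was -0.90, against 0.03 over all genes. The 7 were HSPD1 and 6 TRiC subunits, CCT6A, CCT2, CCT8, TCP1, CCT5 and CCT4. CCT3, CCT7 and HSPE1 did not pass. For 8 genes, these 7 and CCT3, every 3D library lay below every 2D library, where 24.9% of 13227 genes did so.

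HSPD1, the Hsp60 subunit, measured 648, 653 and 626 CPM in the 2D libraries and 231, 198 and 239 CPM in the 3D libraries. Every 3D library lay below every 2D library, and the 3D libraries lay close together. The log2 fold change was -1.57 ± 0.18 (SE), 2.96-fold lower, with an edgeR adjusted p of 0.00116. CCT6A, the zeta subunit of TRiC, measured 486, 474 and 482 CPM in 2D and 187, 170.2 and 180.2 in 3D. It was 2.76-fold lower in 3D, with an edgeR adjusted p of 0.00105. CCT2, the beta subunit, measured 326, 318 and 306 CPM in 2D and 127, 119 and 130 in 3D, and was 2.60-fold lower (edgeR adjusted p = 0.00106). In all 3 genes the highest 3D library lay far below the lowest 2D library.

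CCT8, the theta subunit, measured 175, 169.7 and 167 CPM in 2D and 94.8, 73.0 and 85.4 in 3D, 2.08-fold lower (edgeR adjusted p = 0.00325). TCP1, the alpha subunit for which the complex is named, measured 278, 268 and 265 CPM in 2D and 154, 161 and 125 in 3D, 1.90-fold lower (edgeR adjusted p = 0.00449). Both genes had groups that did not overlap, and both were called under all 16 alternative settings, as were HSPD1, CCT6A and CCT2. CCT5, the epsilon subunit, measured 229, 231 and 222 CPM in 2D and 140.2, 153 and 89.1 in 3D (edgeR adjusted p = 0.0116). CCT4, the delta subunit, measured 294, 278 and 280 CPM in 2D and 194, 209 and 137 in 3D (edgeR adjusted p = 0.0192). In both, 3D replicate 3 was the lowest of the libraries, and the calls held under 11 and 9 of the 16 alternatives, with adjusted p up to 0.267 for CCT5 and 0.114 for CCT4, also in edgeR.

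The 3 genes that did not pass had 3D libraries that disagreed. CCT7, the eta subunit, measured 389.8, 365 and 362 CPM in 2D and 549, 694 and 169.8 in 3D, so that 3D replicates 1 and 2 lay above all 2D libraries and replicate 3 lay below them. CCT3, the gamma subunit, measured 970, 956 and 954 CPM in 2D and 770, 952 and 319 in 3D, with replicate 2 just under the 2D libraries and replicate 3 far below. HSPE1, the Hsp10 lid, measured 129, 123 and 134 CPM in 2D and 136, 116 and 75.4 in 3D, with replicate 1 just above the 2D libraries, replicate 2 just below and replicate 3 far below. Their log2 fold changes were 0.28 ± 0.40, -0.55 ± 0.33 and -0.29 ± 0.22 (SE), with edgeR adjusted p of 0.606, 0.213 and 0.329.

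**Figure D2:**
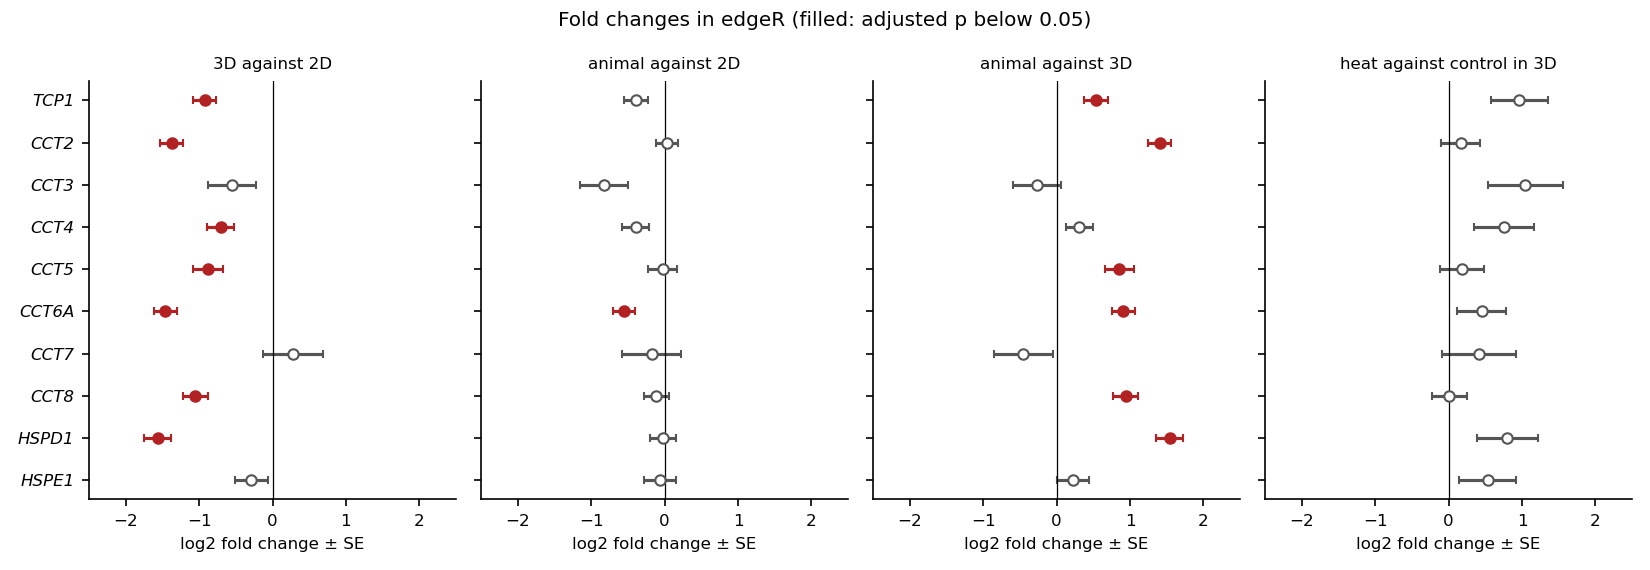
Log2 fold change with its SE for the 10 genes in the 4 comparisons (horizontal axis), filled where the edgeR adjusted p was below 0.05. In 3D against 2D 7 genes are filled and lower, in animal against 3D 6 are filled and higher, in animal against 2D CCT6A alone is filled, and under heat none is.

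The same 3 genes had the transcripts richest in GC, at 51.3% for CCT7, 51.2% for CCT3 and 50.2% for HSPE1, against 43.1 to 45.9% in the other 7. Over the 10 genes, the log2 difference between 3D replicates 1 and 3 had a rank correlation of 0.66 with transcript GC content, and that between replicates 2 and 3 one of 0.72. Over 13105 genes the values were 0.67 and 0.77. These are descriptions over genes of the same libraries and carry no test. With 3D replicate 3 as the only 3D library, 10 of 10 genes were called lower in edgeR, where 23.6% of all genes were, and the median was -1.20. There CCT7 had a log2 fold change of -1.13, CCT3 -1.58 and HSPE1 -0.77, with edgeR adjusted p of 0.000905, 0.000185 and 0.00503, in fits where the spread of the lone 3D library was taken from the 2D and animal libraries. Without replicate 3 instead, CCT7 was called higher, at 0.66 with an edgeR adjusted p of 0.00213, so its direction rested on which 3D libraries were kept.

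After the GC and length offset 7 of 10 genes were again called lower in edgeR and none higher, where 18.9% of all genes were called lower. HSPD1 (-1.27), CCT2 (-1.31), CCT6A (-1.10), CCT8 (-0.73) and TCP1 (-0.54) were among them, and their log2 fold changes all kept their sign. CCT3 (-1.05) and HSPE1 (-1.07) joined them, while CCT5 (-0.38) and CCT4 (-0.42) no longer passed. CCT7 was at -0.29, with an edgeR adjusted p of 0.403.

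**Figure D3:**
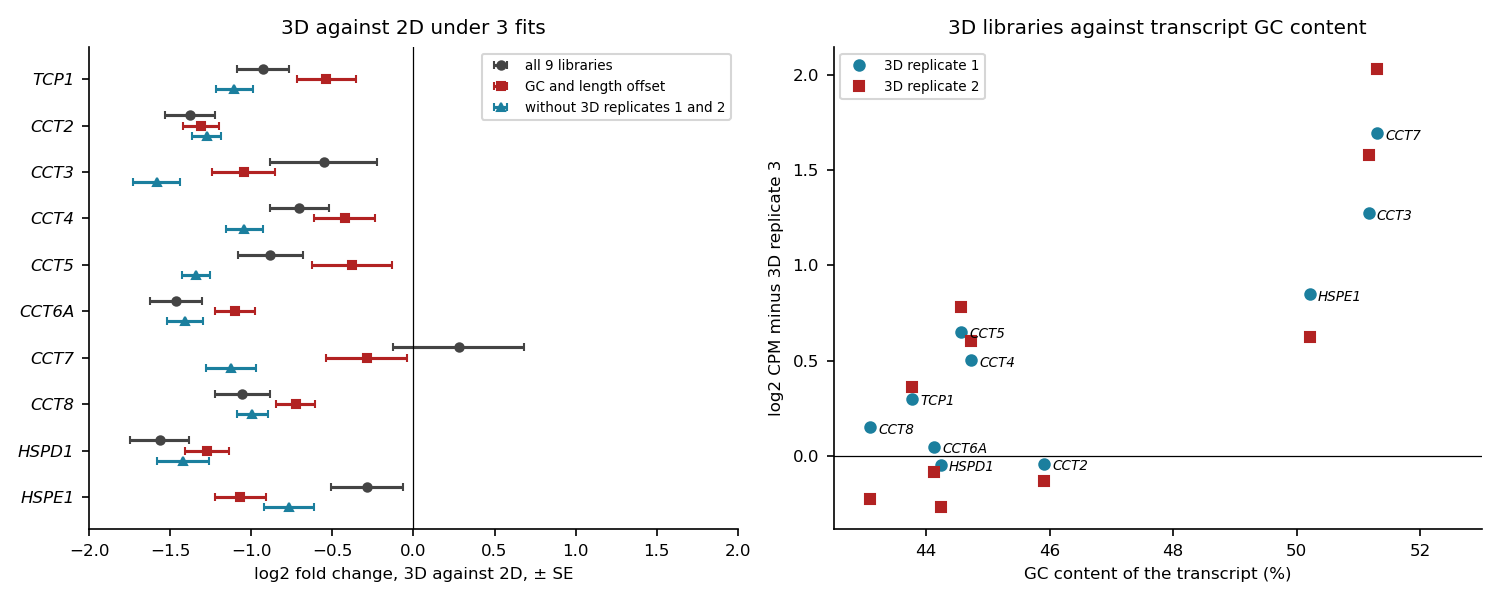
Left, the 3D against 2D log2 fold change ± SE of each gene (horizontal axis) in all 9 libraries, after the GC and length offset, and without 3D replicates 1 and 2. Right, the log2 CPM of 3D replicates 1 and 2 minus replicate 3 against the GC content of each gene's transcript in percent; CCT7, CCT3 and HSPE1, above 50% GC, lie between 0.62 and 2.03.

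Between animal and 2D libraries CCT6A alone was called, 1.47-fold lower in the animal libraries, and no gene was called higher, where 4.25% of 12925 genes were called lower and 7.78% higher in edgeR. CCT6A measured 339.9, 292 and 340.3 CPM in animal libraries against 474 to 486 in 2D. Its groups did not overlap, at a log2 fold change of -0.55 ± 0.15 (SE) and an edgeR adjusted p of 0.0488. That call ended on leaving out any library of either group, with edgeR adjusted p up to 0.181. HSPD1 measured 562, 724 and 585 CPM in the animal libraries, on both sides of its 2D range of 626 to 653, and its log2 fold change was -0.02 ± 0.18. CCT2, at 317, 327 and 315 CPM, and CCT5, at 218, 224 and 220.4, overlapped their 2D libraries, with log2 fold changes of 0.03 ± 0.15 and -0.03 ± 0.20.

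Some subunits had lower values in the animal libraries without passing in edgeR. CCT3 measured 478, 605 and 525 CPM there, and its log2 fold change was -0.82 ± 0.33 (edgeR adjusted p = 0.149). TCP1 measured 197, 223 and 193 CPM and CCT4 232, 194 and 214, with log2 fold changes of -0.39 ± 0.16 and -0.40 ± 0.18 (edgeR adjusted p = 0.160 and 0.205). The animal libraries lay below all 2D libraries for 6 genes, TCP1, CCT3, CCT4, CCT6A, CCT7 and CCT8, and above for none, where 33.3% and 32.7% of 13227 genes did so. In the fit without 3D replicates 1 and 2, in which the shared estimate of spread no longer holds these libraries, TCP1, CCT3, CCT4 and CCT6A were called lower, with edgeR adjusted p of 0.000262 to 0.00277. In that fit 27.2% of 13604 genes were called lower and 28.4% higher.

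Against 3D, the animal libraries were higher for 6 genes and lower for none, where 18.6% of all genes were called higher and 22.9% lower in edgeR. The comparison shares the 3D libraries with that of 3D and 2D. HSPD1 was 2.91-fold higher in animal than in 3D (edgeR adjusted p = 0.000752) and CCT2 2.65-fold (edgeR adjusted p = 0.000565). CCT8, at 149, 157 and 163 CPM in the animal libraries, was 1.92-fold higher, CCT6A 1.88-fold and CCT5 1.81-fold, with edgeR adjusted p of 0.00344, 0.00287 and 0.0102. TCP1 was 1.45-fold higher (edgeR adjusted p = 0.0261), a call that held under 7 of the 16 alternatives, with edgeR adjusted p up to 0.743. All 6 had animal libraries above all 3D libraries, where 26.8% of 13227 genes did so.

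CCT4, CCT3, CCT7 and HSPE1 did not pass against 3D, at log2 fold changes of 0.31, -0.27, -0.45 and 0.22. Without 3D replicates 1 and 2 all 10 genes were called higher in animal libraries in edgeR, where 24.6% of all genes were called higher and 22.5% lower, with CCT3 at 0.74 and CCT7 at 0.93. Without 3D replicate 3 instead, CCT3 and CCT7 were called lower, at -0.60 and -0.84 (edgeR adjusted p = 0.00241 and 0.000467). After the GC and length offset 5 were called higher, where 24.1% of all genes were: HSPD1 (1.19), CCT2 (1.29), HSPE1 (0.75), CCT6A (0.51) and CCT8 (0.47). TCP1 (0.08) and CCT5 (0.36) no longer passed there, with edgeR adjusted p of 0.743 and 0.265.

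No chaperonin gene passed the threshold under heat. In edgeR 0 of 10 were called in either direction, where 0.00792% of 12627 genes were called higher and 0.0158% lower, and 1 passed at an unadjusted p below 0.05, where 20.8% of all genes did. In DESeq2 0 members were called, where 6.74% of all genes were called higher and 5.46% lower, and 3 passed unadjusted, where 26.4% of all genes did. The fitted log2 fold changes were above 0 for all 10 genes, with a median of 0.49 against 0.10 over all genes tested. They ran from 0.01 for CCT8 to 1.05 for CCT3, and the lowest adjusted p was 0.232, for TCP1.

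The heated libraries differed from each other in their response. HSPA1A, an inducible Hsp70, and DNAJB1, its Hsp40 partner, served as a check of the heat label. HSPA1A measured 346 to 369.5 CPM in the controls and 23949, 1304 and 15261 in heat replicates 1, 2 and 3, or 67.1, 3.66 and 42.8 times the control mean. DNAJB1 measured 174 to 188 CPM in the controls and 5159, 336 and 2244 in the heated libraries. Both lay above the controls in all 3 heated libraries and by far the least in replicate 2, with edgeR adjusted p of 0.0976 and 0.118. HSPA1A has the near-identical copy HSPA1B, so the split of reads between them is uncertain.

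Among the chaperonin genes HSPD1 alone lay above every control in all 3 heated libraries, 1 of 10 genes where 16.3% of all genes did so, and none lay below every control, where 19.8% did. It measured 385, 388 and 392 CPM in the controls and 555, 395 and 1014 with heat. Replicate 3 stood far above, replicate 1 moderately, and replicate 2 just above the control range. The log2 fold change was 0.80 ± 0.41 (SE), with an edgeR adjusted p of 0.308. TCP1 measured 158, 173 and 176 CPM in the controls and 321, 174 and 465 with heat. Heat replicates 1 and 3 lay well above the controls and replicate 2 within them, at a log2 fold change of 0.97 ± 0.39. CCT4 measured 174, 180.4 and 191 CPM in the controls and 372, 143 and 374 with heat, with replicate 2 below them, at 0.75 ± 0.41.

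CCT3 measured 496, 523 and 522 CPM in the controls and 1648, 430.3 and 1001 with heat. CCT6A measured 284, 300.1 and 295 CPM in the controls and 369, 263 and 531 with heat. In both genes replicates 1 and 3 were above the controls and replicate 2 below. CCT7 exceeded its controls, at 223 to 239.9 CPM, in replicate 1 alone, with 536, 157 and 192 CPM. HSPE1 measured 79.1, 89.4 and 85.5 CPM in the controls and 166, 60.5 and 129 with heat. CCT2, CCT5 and CCT8 moved least, with heated libraries between 0.721 and 1.34 times the control mean.

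Taken by library, 9 of 10 chaperonin genes were above the control mean in heat replicate 1, 2 in replicate 2 and 9 in replicate 3, with medians of 0.72, -0.27 and 0.74 on the log2 scale. The medians over all genes were -0.13, 0.01 and -0.05. The order of the replicates in HSPA1A and DNAJB1 was 1, 3, 2, and the chaperonin genes with the largest values were CCT3 and CCT7 in replicate 1 and TCP1 and HSPD1 in replicate 3. Heat replicate 1 is the library whose levels followed GC content, and over the 10 genes its log2 difference from replicate 3 had a rank correlation of 0.78 with transcript GC content, against 0.67 over all genes. Without heat replicate 2, TCP1 and CCT4 were called higher in edgeR, at 1.25 and 1.07 with adjusted p of 0.0496 and 0.0450, where 4.55% of all genes were called higher and 3.58% lower. TCP1 was also called in a fit to all 15 libraries, at an edgeR adjusted p of 0.0452, where 6.52% were called higher and 4.91% lower. Without heat replicate 1, 0 members were called in edgeR and 1 passed unadjusted, where 14.0% of all genes were called higher and 14.8% lower, with HSPD1 at 0.90 and TCP1 at 0.96.

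**Figure D4:**
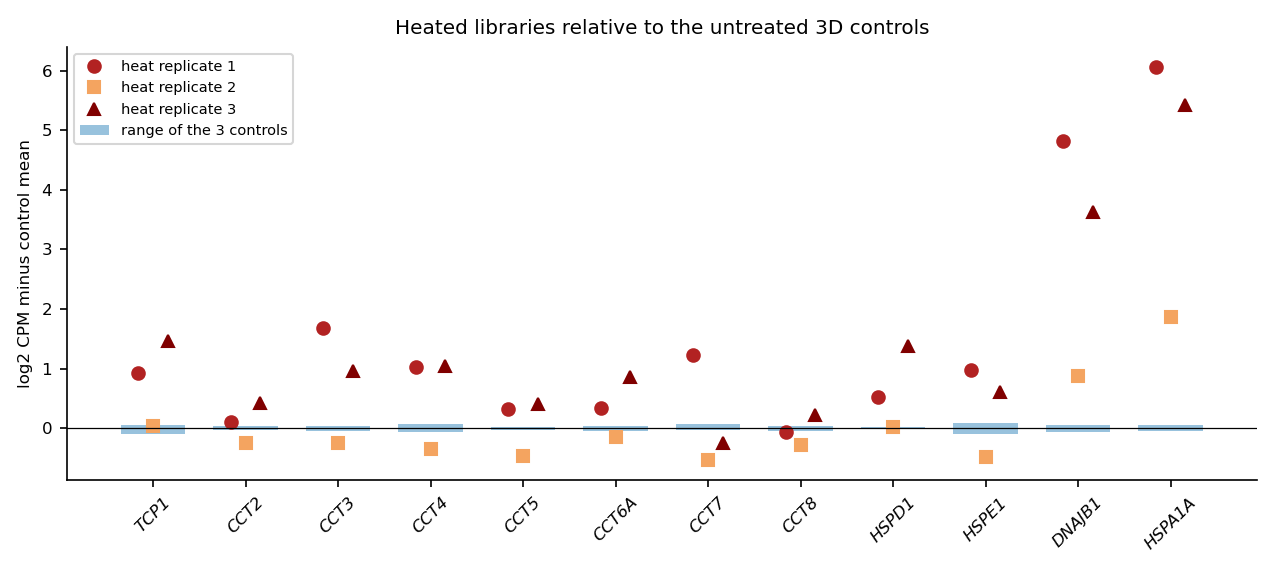
Log2 CPM of each heated library minus the mean of the untreated 3D controls (vertical axis) for the 10 chaperonin genes and for DNAJB1 and HSPA1A, with the range of the 3 controls as a band. Heat replicate 2 (square) is within or below the control range for 9 of the 10 chaperonin genes, while HSPA1A is 67.1, 3.66 and 42.8 times the control mean in replicates 1, 2 and 3.

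Levels were also set against each other per kilobase of transcript. Within TRiC, CCT3 had the highest level in all 15 libraries, with 33.9% of the summed CPM per kb of the 8 subunits in 2D, 34.6% in 3D, 25.5% in animal, 30.5% in 3D control and 37.6% in 3D heat. Its share in heat replicate 1, which followed GC content, was 46.7%, against 30.8 and 35.1% in heat replicates 2 and 3. CCT5 had 4.69% in 2D and was the lowest in 14 libraries, the exception being 3D replicate 2, where CCT8 was lowest. The TRiC proteins are assembled in equal numbers, and their transcripts spanned 7.22-fold from highest to lowest in 2D and 4.15-fold in animal libraries. The animal range, 3.76 to 4.63, lay below that of 2D, 7.09 to 7.35, in every library. Per kilobase of coding sequence CCT3 still ranked highest in the mean of every group, with 30.3% in 2D, and CCT8 ranked lowest. By that length the span was 5.66-fold in 2D and 3.45-fold in animal libraries, so its size depends on the length used. Between 2D and 3D the shares that differed most were those of CCT7, at 13.9% in 2D and 24.6% in 3D, and of CCT6A, at 13.4% and 8.36%. In 3D replicates 1, 2 and 3 CCT7 had 27.6, 30.3 and 15.8%, and CCT6A 7.01, 5.56 and 12.5%. Replicates 1 and 2 are the 3D libraries that followed GC content, and replicate 3 lay nearer the 2D shares.

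The lid and the barrel of the mitochondrial chaperonin did not keep the same ratio. HSPE1 relative to HSPD1, in CPM per kb of transcript, was 0.513, 0.487 and 0.555 in the 2D libraries and 0.506, 0.502 and 0.504 in the animal libraries. It was 1.52, 1.52 and 0.816 in the 3D libraries, all above 2D and animal, and 0.531, 0.596 and 0.564 in the 3D controls. In the heated libraries it was 0.773, 0.396 and 0.329, on both sides of the controls. Per kilobase of coding sequence the same ratio was 1.13 in 2D, 2.79 in 3D, 1.10 in animal, 1.23 in 3D control and 1.09 in 3D heat. The 3D libraries with the highest ratio are those that followed GC content, and HSPE1 has the GC-richer transcript. The summed level of the 8 TRiC genes was 3083 ± 59.2 CPM in 2D, 1994 ± 675 in 3D, 2300.2 ± 26.9 in animal, 1831 ± 54.7 in 3D control and 2797 ± 1143.5 in 3D heat (SD, n = 3). In replicates 1, 2 and 3 the sums were 2215, 2531 and 1236 CPM in 3D and 3733, 1522 and 3135 in 3D heat.

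**Figure D5:**
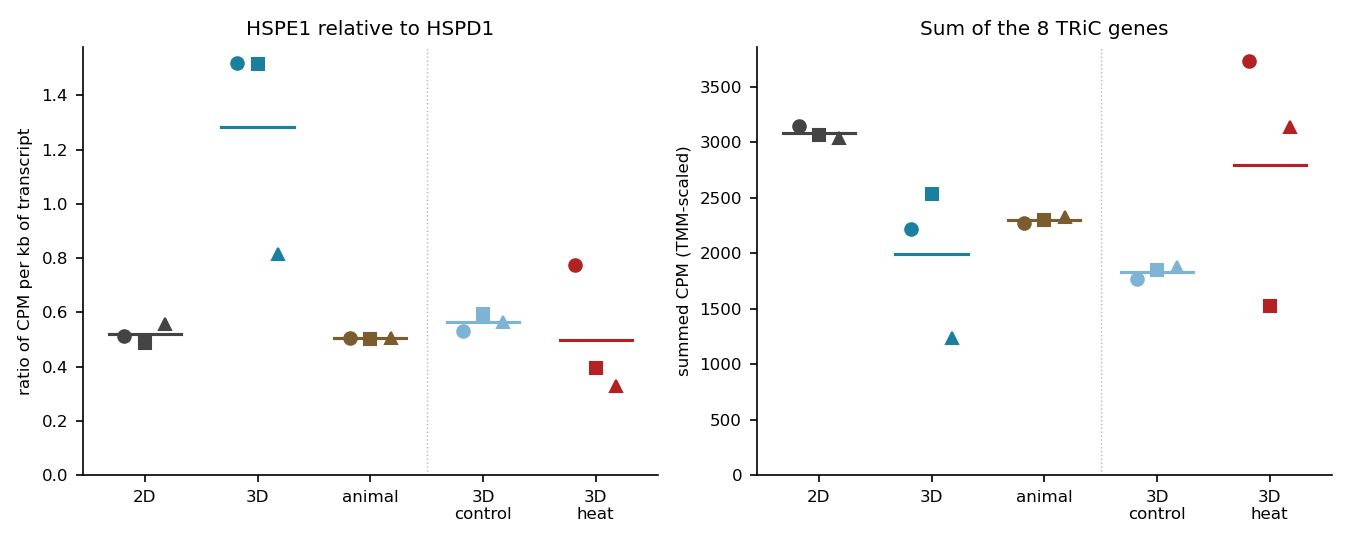
Left, the ratio of HSPE1 to HSPD1 in CPM per kb of transcript by library, and right, the summed CPM of the 8 TRiC genes, with replicates 1, 2 and 3 as circle, square and triangle and the mean as a bar. The 3D libraries hold the highest ratios, 0.816 to 1.52, and the animal libraries the closest, 0.502 to 0.506.

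Over the 15 libraries the 45 pairs of chaperonin genes had a median Pearson r of 0.66 in log2 CPM, from -0.17 for CCT7 with HSPD1 to 0.97 for CCT2 with CCT8. Over the 12 libraries that did not follow GC content the median was 0.82, from 0.32 for TCP1 with CCT7 to 0.99 for CCT2 with CCT5. The libraries share their groups and rounds, so these are descriptions. Among 9441 other genes averaging 10 CPM or more, those most like the mean of the 8 TRiC genes were POLR3C (r = 0.93), DNAJA2, RRS1, NOP14 and LSM1 over 15 libraries. Over the 12 libraries that did not follow GC content they ranked 54, 27, 65, 79 and 29, in the same order. POLR3C encodes a subunit of RNA polymerase III, DNAJA2 an Hsp40 co-chaperone, RRS1 and NOP14 ribosome assembly factors, and LSM1 a part of the mRNA decay machinery. Most like the mean of HSPD1 and HSPE1 was STRAP, a WD-repeat protein, with r = 0.98 over 15 libraries and again first over 12. STRAP measured 241 to 251 CPM in 2D, 140 to 169 in 3D, 218 to 250.4 in animal, 158 to 170.3 in 3D control and 249, 163 and 332 with heat. LSM1, the Hsp40 co-chaperone DNAJA1, the RNA methyltransferase NSUN2 and the proteasome subunit PSMD7 followed it, and DNAJA1 measured 789, 198 and 1073 CPM with heat against 255 to 263 in the controls.

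The lists described from here on were fixed by function, and their counts stand beside the shares of all genes given above. Some of the 12 prefoldin, prefoldin-like and phosducin-like genes tested encode proteins that hand others to TRiC or regulate it. Of the 12, 2 were called higher and 2 lower in 3D than in 2D, with a median of -0.44. After the GC and length offset 1 was called higher and 5 lower, where 13.7% and 18.9% of all genes were, with a median of -0.48. PFDN5, a prefoldin subunit, measured 84.7 to 86.0 CPM in 2D and 397, 351 and 146 in 3D, a log2 fold change of 1.75 (edgeR adjusted p = 0.00529), and 0.78 without 3D replicates 1 and 2. It was also called higher in animal libraries, at 170.2 to 203 CPM, and so was PFDN6, at 38.2 to 49.4 CPM against 16.7 to 18.6 in 2D (edgeR adjusted p = 0.0444 and 0.00677). PDCL3, a phosducin-like partner, was lower in 3D, at 14.2 to 17.9 CPM against 24.7 to 26.9 in 2D (edgeR adjusted p = 0.0190). UXT, a prefoldin-like protein, was called higher in 3D at 1.55, but its value was 0.26 without 3D replicates 1 and 2, with an edgeR adjusted p of 0.0994.

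Actins and tubulins are the main clients of TRiC. Of 14 actin and tubulin genes 1 was called higher in 3D than in 2D, none was called in animal against 2D, and 7 were called lower in animal than in 3D. Their medians were 0.36, -0.65 and -1.10, against 0.03, 0.03 and 0.10 over all genes. ACTG1, gamma-actin, measured 2224 to 2321 CPM in 2D, 5379, 5007 and 2514 in 3D, and 1320 to 1557 in animal libraries. TUBB2B, a beta-tubulin, measured 76.2 to 82.0 CPM in 2D, 144, 182 and 64.2 in 3D and 33.5 to 37.9 in animal libraries. In both genes the animal libraries were lowest and 3D replicate 3 was far below the other 3D libraries. Without 3D replicates 1 and 2 the medians were -0.67 in 3D against 2D, -0.67 in animal against 2D and 0.12 in animal against 3D. The signs of the first and the last thus turned on those libraries. After the GC and length offset the 3 medians were -0.53, -0.69 and -0.18. There 6 of the 14 were called lower in 3D than in 2D and 0 higher, where 18.9% and 13.7% of all genes were. In animal against 3D 2 were then called higher and 4 lower, where 24.1% and 16.5% of all genes were. Actin and tubulin genes are close copies of each other, and how reads were split between them is not given in the sources used here. Of 11 other clients, 1 was called higher and 1 lower in 3D than in 2D, 1 lower in animal than in 2D, and 1 higher and 4 lower in animal than in 3D. In these 3 comparisons the medians of the other clients were 0.30, -0.40 and -0.51, and -0.24, -0.42 and -0.04 without 3D replicates 1 and 2. The gene lower in animal than in 2D in all 9 libraries without the offset was PLK1, a mitotic kinase, at 78.8 to 113 CPM against 248 to 259 (edgeR adjusted p = 0.0488). After the GC and length offset 2 other clients were called higher and 4 lower in 3D than in 2D. In animal libraries 4 were then called lower than in 2D, where 1652 of 12925 genes were. Against 3D, 1 was then higher and 2 lower.

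Of 5 tubulin folding cofactors tested, which take tubulin on from TRiC, 1 was called higher in 3D than in 2D and 3 lower in animal than in 3D. ARL2, a small GTPase of this group, measured 75.5 to 79.4 CPM in 2D, 301, 380 and 89.0 in 3D and 59.8 to 92.3 in animal libraries. Its log2 fold change of 1.67 in 3D was 0.21 without 3D replicates 1 and 2, and that of -1.66 in animal against 3D was -0.22 (edgeR adjusted p = 0.385). In that fit 2 of 6 cofactors tested were called lower in animal than in 3D, TBCA and TBCB, at -0.37 and -0.27. Of 4 chaperonin-like genes outside the complex, MKKS was called lower in 3D than in 2D, at 8.68 to 13.4 CPM against 18.6 to 20.3 (edgeR adjusted p = 0.0203), a log2 fold change of -0.95. It became 0.45 after the GC and length offset, with an edgeR adjusted p of 0.305, so its direction depends on the offset. With 3D replicates 1 and 2 left out, the log2 fold change of MKKS was -0.54. CCT6B, the testis form of CCT6A, was near the floor, at 0.202 to 1.66 CPM over all libraries. It measured 1.20 to 1.66 CPM in 3D control and 0.279 to 0.561 in 3D heat, and was not called there (edgeR adjusted p = 0.109).

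In mitochondria, HSPA9, the Hsp70 that passes proteins to Hsp60, was the only 1 of 9 genes of its system called in 3D against 2D. It measured 453 to 480 CPM in 2D and 288, 254 and 242 in 3D, apart from 2D in each library, at a log2 fold change of -0.88 (edgeR adjusted p = 0.00417). That became -0.17 after the GC and length offset, with an edgeR adjusted p of 0.521, and -0.94 without 3D replicates 1 and 2, where 6 of the 9 were called lower. With heat HSPA9 measured 500, 253 and 608 CPM against 325 to 343 in the controls, the same order of replicates as HSPD1 and TCP1. Of 11 mitochondrial proteases, 1 was called higher and 2 lower in 3D than in 2D. The higher was CLPP, a matrix protease, at 161, 169 and 43.3 CPM in 3D against 48.0 to 48.7 in 2D (edgeR adjusted p = 0.0417), a log2 fold change of 1.30 that was -0.15 without 3D replicates 1 and 2. YME1L1, an inner-membrane protease, was lower, at 54.2, 38.1 and 84.1 CPM against 104.9 to 113 (edgeR adjusted p = 0.0352). Its log2 fold change of -0.93 was -0.07 after the GC and length offset and -0.38 without 3D replicates 1 and 2. AFG3L2, part of an inner-membrane protease, was called lower in 3D (40.7 to 54.4 CPM) and in animal libraries (52.8 to 56.6) than in 2D (90.1 to 96.8), with edgeR adjusted p of 0.00626 and 0.0264.

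Of 6 regulators of heat shock and mitochondrial stress genes, 3 were called lower in animal than in 3D and 1 lower in 3D than in 2D. HSF1, the heat shock factor itself, measured 194 to 203 CPM in 2D, 394, 479 and 162 in 3D and 80.7 to 117 in animal libraries. It was 3.41-fold lower in animal than in 3D (edgeR adjusted p = 0.00508), and its log2 fold change was -1.77, or -0.76 without 3D replicates 1 and 2 and -0.28 after the GC and length offset. DDIT3 and ATF5, transcription factors of the stress response, were the others, at -1.27 and -0.96. Without 3D replicates 1 and 2 they were at -1.41 and -0.20. After the GC and length offset 0 of the 6 regulators were called lower in animal than in 3D and 1 was called higher. Of all genes 16.5% were then called lower and 24.1% higher in edgeR. HSF2, a second heat shock factor, was the gene lower in 3D, at 5.62 ± 3.31 CPM against 12.9 ± 0.838 in 2D (SD, n = 3). Its log2 fold change was -1.21, with an edgeR adjusted p of 0.0451. It was -0.45 without 3D replicates 1 and 2, and -0.62 after the GC and length offset, with an edgeR adjusted p of 0.0317. Under heat 0 genes of these 8 lists were called in edgeR.

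Part of the reads of some members is uncertain. HSPD1 and HSPE1 share 281 exon bases on opposite strands in GENCODE, and no strand-marking step appears in the library protocol. HSPE1 also shares 192 exon bases with the readthrough HSPE1-MOB4, TCP1 shares 397 with ACAT2, CCT4 81 with COMMD1 and 275 with the antisense gene AC107081.2, and CCT5 1757 with an antisense gene. The members have 56 pseudogenes in GENCODE, 26 of them of HSPE1 and 17 of HSPD1, and 0 of the 56 has a row in the table, and how reads matching both a gene and a copy were treated is not given in the sources used here.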

How the data were processed

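RNA was fragmented, copied with random hexamers and sequenced as single-end reads of 50 bases, per the labels' protocols. The submitters' processing notes name HISAT2, with no version, and the build hg19. The program that counted reads, its annotation and its strand setting are not given in the sources used here. The table deposited by the authors holds raw counts by gene symbol, whole numbers whose total differs per library, from 12605539 to 18634295. In 27 rows the symbol had become a date, with 0.168% of counts.

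Counts were tested in R 4.3.3 with edgeR 4.0.16 (filterByExpr by group, TMM, robust quasi-likelihood, group only). The 9 libraries of the first round and the 6 of the second were fitted apart, and p-values were adjusted over all genes tested. Levels are edgeR CPM over 15 libraries, with a prior count of 2 for log2 values. Intervals are SD or SE between libraries. No 2 libraries agreed within sampling noise. GC content and length came from GENCODE transcripts of another build, for 99.1% of tested genes, and the offset used splines with 5 degrees of freedom. The fits were also run on simulated counts. Those had no trend with GC content or length and no unequal heat response, so these features were not tested there.

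The members, gene lists and alternatives were chosen with earlier results of these data known. All 10 members are named, with the 5 genes of highest r to each mean at 10 CPM or more, and DNAJB1 and HSPA1A check the heat label. From each list, genes were named among the 3 called genes of smallest adjusted p in each comparison, but not all of them. GNB2, FZR1, HDAC3, GRPEL2, TRAP1, PMPCB, TUBB2A and TBCD, called in animal against 3D, are not described. The same holds for VHL, called lower in 3D than in 2D. TBCA was named from the fit without 3D replicates 1 and 2. CCT6B, and HSPA9 under heat, were singled out after their values were seen. Alternatives were DESeq2 1.42.0, 2 other scalings, no filter, a filter of 10 reads, the replicate number as a block, other sets of libraries in the fit, the GC and length offset, and leaving out libraries.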

Additional observations from a re-analysis of the deposited data

How the results depend on the processing

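The count of members lower in animal than in 2D, 1 as reported, was 0 with median-ratio or upper-quartile scaling, without the filter, and with each replicate left out in turn (0 to 0), 2 with the GC and length offset, and 4 with only the 2 groups compared or without 3D replicates 1 and 2. Members higher in animal than in 3D were 10 without 3D replicates 1 and 2, and there the sign turned for CCT7 against 2D (-1.13), and for CCT3 (0.74) and CCT7 (0.93) in animal against 3D. Leaving out 1 replicate gave 0 to 1 members higher in 3D than in 2D, the 1 being CCT7 without 3D replicate 3, and 0 to 2 lower in animal than in 3D. Under heat it gave 0 to 2 higher, the 2 without heat replicate 2, and the fit to all 15 libraries gave 1. The replicate number was used as a block although same-numbered libraries did not deviate together (r = -0.23 to 0.18): members lower in animal than in 2D were 0 with the replicate block and 2 when it was joined to the GC and length offset.

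Over all genes the heat calls were 1 higher and 2 lower in edgeR, 851 and 690 in DESeq2, 730 and 728 after the GC and length offset, 862 and 649 in the fit to 15 libraries, and 22 and 8 with the replicate block. Without heat replicate 1 they were 1795 and 1896, and without heat replicate 2 they were 585 and 460. In 3D against 2D, 2586 higher and 1661 lower became 1770 and 2440 after the offset and 3111 and 3205 with replicates 1 and 2 of 3D left out, or 4560 and 4933 with its replicate 3 left out. For animal and 2D, 1006 and 549 became 3751 and 3538 with only the 2 groups compared. The causes were not tested. Heat calls rest on 3 libraries of unequal response, and the 3D calls on libraries of unlike composition, and each member had at least 992 reads per library.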
